A study of Mus musculus with 6 samples.

Results

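Interleukins are secreted proteins with which immune, connective tissue and barrier cells signal to each other, and most act through receptors of 2 or more chains. The genes described are those of interleukins and interleukin receptors, chosen as every gene on the array whose symbol begins with Il followed by a digit. The rule used no expression value and gave 73 of the 18193 genes measured, each read from its brightest probe set, a set of short oligonucleotides for 1 transcript. They include Il4i1, an amino acid oxidase, and Il1bos, an antisense transcript at the Il1b locus.

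The samples were cells from the myenteric plexus, which lies between the muscle layers of the mouse colon, sorted by EGFP and profiled on 1-colour Affymetrix arrays. The mice were of the strain Mapttm1(EGFP)Klt/J, in which EGFP is inserted at Mapt, the gene of the neuronal microtubule protein tau. The 3 libraries labelled EGFP-positive are described as colonic neurons and the 3 labelled EGFP-negative as myenteric cells, and each pools cells of 2, 4 or 6 mice. All mice, of both groups, had undergone laparotomy under pentobarbital with an injection of labelled cholera toxin subunit B into the celiac ganglion 3 to 4 days before death, so no unoperated gut is included. The labels give neither age nor zygosity.

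The interleukin 1 family holds the inflammatory cytokine made by Il1b, its receptor Il1r1, the co-receptor Il1rap that starts the signal, and the decoy receptor Il1r2 that binds the cytokine without signalling. Il1b is induced in activated macrophages, monocytes and neutrophils. Il18 and Il33 belong to the same family and are known from epithelial, mesothelial and stromal cells, and the Il6, Il17 and Il10 families use receptors with shared chains such as Il6st, Il17ra and Il10rb.

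Values are deposited log2 expression values in the order of replicates 1 to 3, and group means carry the SD of 3 libraries. Probe sets for TrpnX, a bacterial control transcript, read 1.00 to 1.48 and gave the background. Per library, 6182 to 7621 probe sets exceeded log2 6, and EGFP-negative replicate 1 had the fewest. Mapt, taken as a check of the sort, read 1.43, 1.32 and 5.55 under the positive label and 1.44, 1.64 and 1.38 under the negative label. EGFP-positive replicates 1 and 2 thus lay within or below the range of the negative label. EGFP is inserted at Mapt and the zygosity is not given, so Mapt RNA is an uncertain reading of EGFP. The means of 14 pan-neuronal marker genes were 3.24 and 3.16 in these 2 libraries and 3.34 to 3.76 under the negative label. Below, "EGFP-positive" and "EGFP-negative" name the labels only. Deviations from the group means were positively correlated in all 3 same-numbered pairs of libraries, so differences within the pairs are given beside the main results.

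Most interleukin genes were dim in these cells. Of the 73 genes, 26 reached log2 4 in at least 1 library, 15 of them log2 6, and 47 stayed under log2 4, against 52.2% of all genes reaching log2 4. None passed the test between the groups (limma, Benjamini-Hochberg adjusted over all genes), where 0% of all 18193 genes passed. An unadjusted p under 0.05 was reached by 6 of the 73 genes, against 4.91% of all genes, with 5 of the 6 lower, against 3.43%, and 1 higher, against 1.48%. The groups did not overlap in 11 of the 73 genes, against 9.11% of all genes. In 10 of these all 3 EGFP-positive values lay below all 3 EGFP-negative values, against 6.04% of all genes, and in 1, Il1rap, they all lay above, against 3.07%. Only 2 of those 10, Il1b and Il1r2, reached log2 4 anywhere. The 26 ribosomal protein genes measured, used as another scaling reference, themselves had a median difference of -0.35. Of the 26, 24 differences were below 0, and 10 genes were lower without overlap, against 6.04% of all genes. Centring the arrays on these genes raised the median difference of all genes to 0.31. The split of the interleukin genes then became 3 of 73 lower, against 1.19% of all genes, and 12 of 73 higher, against 23.4% of all genes. The differences of Il1b, Il1r2 and Il1rap kept their signs. The median log2 difference of the 73 genes, EGFP-positive minus EGFP-negative, was -0.14, beside -0.02 for all genes, and 55 of 73 differences were below 0, beside 53.6% of all genes. With the ribosomal centring that median was 0.19, beside 0.31 for all genes.

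**Figure D1:**
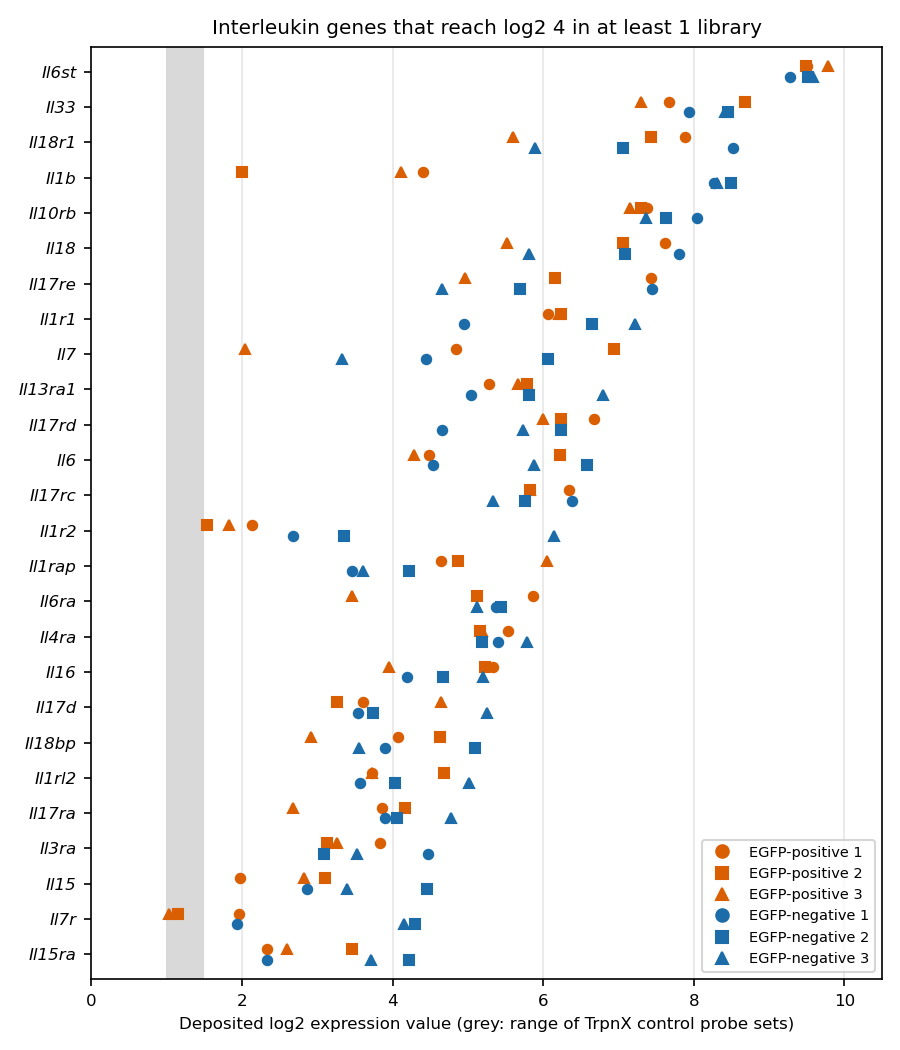
Deposited log2 values (x axis) of the 26 interleukin genes that reached log2 4 in at least 1 library, with 1 symbol per library and the TrpnX background in grey. Il1b stands apart, with EGFP-positive values of 2.01 to 4.40 and EGFP-negative values of 8.27 to 8.50. Of the 26 genes 23 have groups that overlap, 2 are lower without overlap and 1 is higher. Among all 9488 genes that reached log2 4, 614 were lower and 381 higher without overlap.

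Il1b, the gene of the cytokine interleukin 1 beta, separated the groups by more than any other interleukin gene. It read 4.40, 2.01 and 4.11 in the EGFP-positive libraries and 8.27, 8.50 and 8.31 in the EGFP-negative libraries. The 3 EGFP-negative values lay within a narrow range, and the EGFP-positive values were spread, with replicate 2 close to background. The means were 3.51 ± 1.31 (SD, n = 3) and 8.36 ± 0.12 (SD, n = 3), and the log2 difference was -4.85 (SE 0.65, 95% interval -6.47 to -3.24). Adjusted over all 18193 genes this missed the threshold (limma, Benjamini-Hochberg adjusted p = 0.951), although Il1b ranked 6 of 18193 genes by its unadjusted limma p of 0.000411 and 7 by its difference, lowest first. Within the same-numbered pairs the log2 difference of Il1b was -3.86, -6.49 and -4.20, and the limma fit blocked on replicate number gave an adjusted p of 0.661. Without EGFP-positive replicates 1 and 2 it was -4.25 (limma adjusted p = 0.0827, with the lone remaining library assumed to vary like the others). In sorted pools, fewer cells of a type and less RNA per cell cannot be told apart.

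Markers of immune cells moved with Il1b. The 16 macrophage genes averaged 6.36, 3.62 and 2.52 in the EGFP-positive libraries and 7.97, 8.31 and 6.63 in the EGFP-negative libraries. Of the 16, 9 were lower without overlap, against 6.04% of all genes, a share that also stands beside the counts below. Of the 8 neutrophil genes 3 were lower without overlap, and their mean read 1.38 to 2.60 against 3.17 to 4.55. S100a8, a calcium-binding protein abundant in neutrophils and monocytes, read 4.44, 2.25 and 6.31 against 7.27, 8.38 and 9.92. The neutrophil granule genes Elane and Mpo and the receptor gene Cxcr2 stayed between 0.89 and 1.93 in all libraries. The 6 B cell and plasma cell genes were all lower without overlap, with means of 1.88, 0.95 and 0.93 against 2.88, 5.55 and 6.76. Of the 9 dendritic cell and MHC class II genes 7 were lower without overlap, with means of 3.03 to 4.25 against 4.89 to 5.48, and of the 7 mast cell genes 1 was, with means of 1.42 to 1.59 against 1.65 to 2.02. Among the EGFP-positive libraries, Il1b and S100a8 were both lowest in replicate 2, while the macrophage mean was highest in replicate 1 and lowest in replicate 3. Il1b differed by 0.29 between EGFP-positive replicates 1 and 3, whereas the macrophage mean differed by 3.83. The part of these cells in the Il1b result was not tested.

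The promoter of Il1b is shown with those of Il1r2 and Il1rap, the genes of the family that reached log2 4 and whose groups did not overlap. The sequences are the 250 bases before the RefSeq start site (GRCm38.p6), 5′ to 3′ on the gene's strand, and capitals mark a match to a searched motif. Il1b lies on the minus strand (chr2:129371140-129371389), and Il1r2 (chr1:40085843-40086092) and Il1rap (chr16:26581455-26581704) on the plus strand.
Il1b: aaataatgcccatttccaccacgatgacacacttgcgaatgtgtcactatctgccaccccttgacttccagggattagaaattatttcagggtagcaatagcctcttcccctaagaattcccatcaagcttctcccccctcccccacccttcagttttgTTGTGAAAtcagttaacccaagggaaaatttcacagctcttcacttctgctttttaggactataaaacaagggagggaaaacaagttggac
Il1r2: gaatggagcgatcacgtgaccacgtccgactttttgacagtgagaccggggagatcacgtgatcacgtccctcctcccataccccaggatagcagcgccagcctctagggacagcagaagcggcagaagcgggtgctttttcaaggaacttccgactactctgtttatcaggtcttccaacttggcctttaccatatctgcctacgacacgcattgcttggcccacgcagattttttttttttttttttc
Il1rap: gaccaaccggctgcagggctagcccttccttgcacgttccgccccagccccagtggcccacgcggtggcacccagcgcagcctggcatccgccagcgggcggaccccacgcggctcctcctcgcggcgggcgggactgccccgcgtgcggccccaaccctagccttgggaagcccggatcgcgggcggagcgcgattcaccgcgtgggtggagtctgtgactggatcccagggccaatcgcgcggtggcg
The windows had a GC content of 44.4% in Il1b, 51.2% in Il1r2 and 74.4% in Il1rap. The Il1b window held 1 match to the C/EBP motif TTNNGNAA, from position -91 to -84 before the start, and the other windows held no match to any of the 4 motifs. C/EBP proteins are transcription factors of myeloid cells, but no binding was measured here and a match of letters is not a bound site. Of the 73 interleukin genes 57 had a promoter window. The C/EBP motif was present in 43.9% of those windows and in 36.9% of all 27025 promoters of the same length. The PU.1 core GAGGAA was present in 31.6% and 23.1%, the AP-1 motif TGANTCA in 21.1% and 6.87%, and the NF-kappaB consensus in 3.51% and 3.75%. Both strands were searched for each motif, and matches of different motifs may overlap. Of the 22 windows of genes that reached log2 4, C/EBP matched 11, PU.1 matched 5, AP-1 matched 2 and NF-kappaB matched 1, and the difference from the other windows was not tested.

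Il1r2, the decoy receptor of the family, was near background in the EGFP-positive libraries and varied among the EGFP-negative ones. It read 2.13, 1.54 and 1.83 against 2.68, 3.35 and 6.15. The groups did not overlap, and EGFP-negative replicate 3 was far above the other libraries. The log2 difference of -2.23 (SE 0.92) missed the threshold (limma adjusted p = 1.00), and without EGFP-negative replicate 3 it was -1.18. Within the same-numbered pairs it was -0.55, -1.82 and -4.32, and the limma fit blocked on replicate number gave an adjusted p of 0.673. The same library held the highest values of S100a8 and of Csf3r, the receptor for the neutrophil growth factor, which read 2.08, 0.97 and 1.11 against 2.44, 2.36 and 4.66. It also held the highest mean of the 6 B cell and plasma cell genes, at 6.76. The part of these cells in the Il1r2 values was not tested.

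Il1rap, the signalling co-receptor of the interleukin 1 and 33 receptors, was the 1 interleukin gene with all EGFP-positive values higher. It read 4.65, 4.87 and 6.05 against 3.46, 4.21 and 3.61. The nearest values of the groups, EGFP-positive replicate 1 and EGFP-negative replicate 2, lay 0.43 apart. The log2 difference of 1.43 (SE 0.43, 95% interval 0.36 to 2.49) missed the threshold (limma adjusted p = 0.986), and the pair differences were 1.19, 0.65 and 2.44. The other 4 Il1rap probe sets were dimmer, with highest values under log2 3 and differences of -0.12 to 0.62, and the mean of all its probe sets gave 0.44. Enteric glia markers moved with it. The 8 glial genes averaged 6.30, 6.00 and 8.12 against 4.60, 5.79 and 5.36. Of these, 3 were higher without overlap, against 3.07% of all genes. The 14 pan-neuronal genes averaged 3.24, 3.16 and 6.55 against 3.34, 3.53 and 3.76, and were high in EGFP-positive replicate 3 alone. Of the 14, 0 had groups without overlap, against 9.11% of all genes. The library with the highest Il1rap value, EGFP-positive replicate 3, was also the highest in both lists, and their part in the Il1rap result was not tested.

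**Figure D2:**
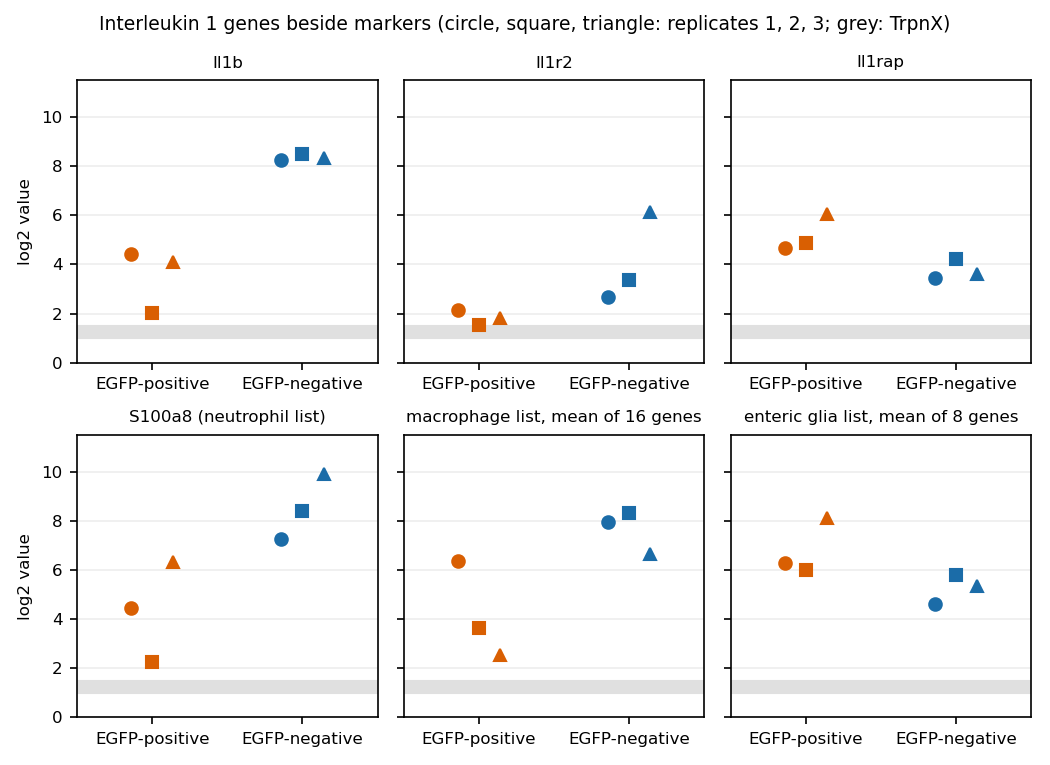
Log2 values (y axis) of Il1b, Il1r2, Il1rap, S100a8, the macrophage list mean and the enteric glia list mean in each library. Replicates 1, 2 and 3 are drawn as circle, square and triangle. S100a8 is 1 gene of the neutrophil list, in which 3 of 8 genes were lower without overlap. Il1b and S100a8 are both lowest in EGFP-positive replicate 2, at 2.01 and 2.25, and Il1rap and the glial mean are both highest in EGFP-positive replicate 3, at 6.05 and 8.12.

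The remaining interleukin 1 genes did not separate the groups at a measurable level. Il1r1, the signalling receptor, read 6.06, 6.23 and 6.21 against 4.95, 6.65 and 7.22, so that the EGFP-positive libraries were alike and the EGFP-negative libraries lay on both sides of them. Its log2 difference was -0.11 (95% interval -1.56 to 1.35). Il1a, the sister cytokine of Il1b, read 1.43, 1.24 and 1.33 against 1.48, 1.68 and 1.66, close to background. Il1rn, the gene of the receptor antagonist, read 2.23, 1.49 and 1.26 against 2.16, 2.16 and 2.31 and so did not reach the level needed to read a difference. Il1bos stayed at 1.39, 1.44 and 1.24 against 1.71, 1.43 and 1.29. These 3 genes, and others that did not reach log2 6, are named after their values were seen.

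Il33, an alarm cytokine held in the nucleus of stromal and endothelial cells, was present in all 6 libraries. It read 7.68, 8.68 and 7.30 against 7.94, 8.45 and 8.42, and the groups overlapped. The log2 difference was -0.39 (95% interval -1.35 to 0.58).

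Il18, an epithelial and mesothelial cytokine, its receptor chain Il18r1, and Il17re, the epithelial receptor chain for the cytokine Il17c, differed between replicate numbers rather than between groups. Il18 read 7.61, 7.06 and 5.52 against 7.80, 7.09 and 5.81. Il18r1 read 7.89, 7.43 and 5.60 against 8.53, 7.06 and 5.90. Il17re read 7.44, 6.16 and 4.96 against 7.45, 5.69 and 4.65. Each of these genes was highest in replicate 1 and lowest in replicate 3 of both groups, and the log2 differences between the groups were -0.17 (95% interval -1.99 to 1.65), -0.19 (-2.38 to 2.00) and 0.25 (-2.04 to 2.55). The difference of Il18 within a same-numbered pair was -0.19, -0.03 and -0.29, far less than the spread within either group. The pair differences were wider and mixed in sign for Il18r1, at -0.64, 0.37 and -0.30, and for Il17re, at -0.01, 0.47 and 0.30. The signs of the Il18 and Il18r1 differences turned with the ribosomal centring. The 6 mesothelium genes, markers of the outer lining of the gut wall, averaged 9.63, 9.07 and 7.27 against 9.32, 8.67 and 7.56, and the 10 epithelial genes averaged 6.97, 6.50 and 4.59 against 6.33, 6.29 and 5.00. Their part in these values was not tested. Il18bp, which encodes a secreted protein that neutralises the Il18 product, read 4.08, 4.62 and 2.92 against 3.90, 5.10 and 3.56.

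**Figure D3:**
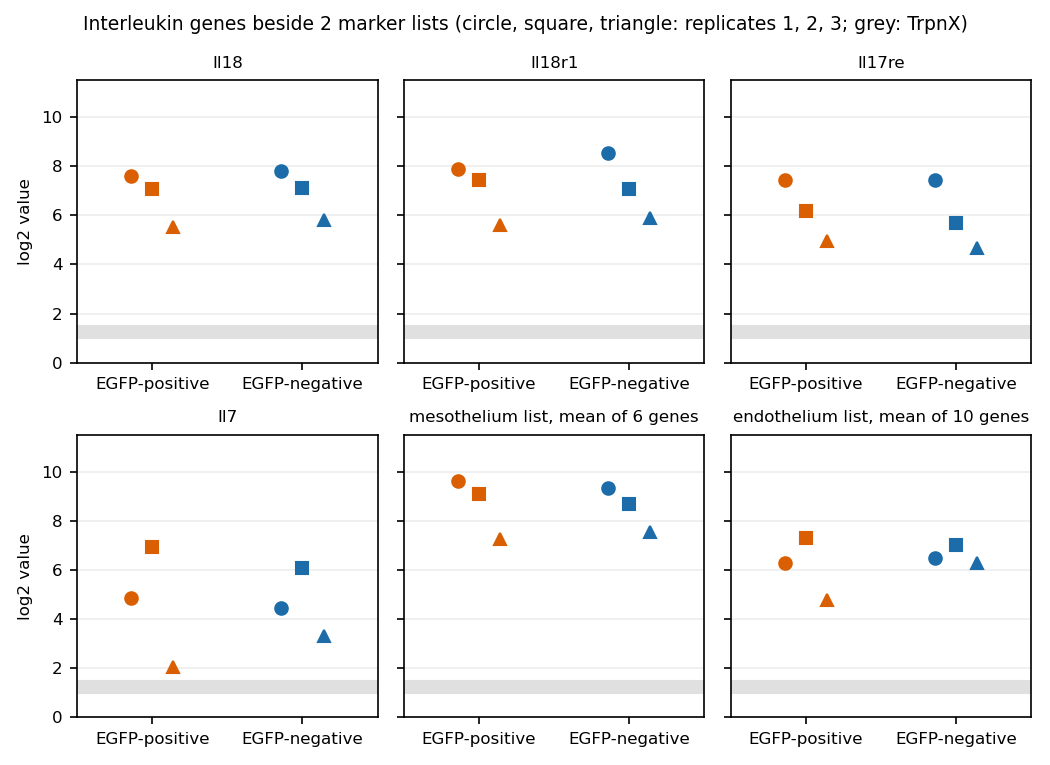
Log2 values (y axis) of Il18, Il18r1, Il17re and Il7 and of the mesothelium and endothelium list means in each library, with replicates 1, 2 and 3 as circle, square and triangle. Il18, Il18r1, Il17re and the mesothelium mean are lowest in replicate 3 of both groups, and Il7 and the endothelium mean are highest in replicate 2 of both.

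In the interleukin 6 family, the shared signalling chain Il6st was nearly equal in all libraries by its brightest probe set. It read 9.51, 9.49 and 9.78 against 9.28, 9.52 and 9.58, with means of 9.59 ± 0.16 (SD, n = 3) and 9.46 ± 0.16 (SD, n = 3). The log2 difference was 0.13 (95% interval -0.23 to 0.50), the narrowest interval among the 15 genes that reached log2 6. A second bright Il6st probe set read 8.29, 7.74 and 7.45 against 7.46, 7.05 and 6.55, with a difference of 0.81. It was higher in the EGFP-positive library of each same-numbered pair, though the groups overlapped. The mean of all Il6st probe sets gave a difference of 0.45. The cytokine gene Il6 read 4.49, 6.22 and 4.28 against 4.54, 6.58 and 5.88, and was highest in replicate 2 of both groups. Its log2 difference was -0.67 (95% interval -2.50 to 1.16), and -0.05, -0.36 and -1.59 within the same-numbered pairs. The ligand-binding chain Il6ra read 5.86, 5.12 and 3.47 against 5.37, 5.44 and 5.12, with only EGFP-positive replicate 3 apart from the rest. Il11, a fibroblast cytokine of this family, did not exceed 2.63.

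Of the 5 receptor genes of the interleukin 17 family 4 reached log2 4 in at least 1 library, as did 1 of its 4 cytokine genes. Il17rc, a subunit of the receptor for the Il17a product, read 6.34, 5.83 and 5.83 against 6.39, 5.76 and 5.33. Il17rd, a membrane protein that restrains fibroblast growth factor signalling, read 6.68, 6.24 and 5.99 against 4.66, 6.23 and 5.73, with EGFP-negative replicate 1 low. Its log2 difference was 0.76 (SE 0.44, 95% interval -0.33 to 1.85), and without EGFP-negative replicate 1 it was 0.32. Il17ra, the chain that these receptors share, read 3.86, 4.17 and 2.68 against 3.90, 4.07 and 4.78. Il17rb, the receptor chain for the Il25 product, stayed between 1.34 and 1.90. Of the ligands, Il17a, Il17b and Il25 did not exceed 1.40, 1.82 and 1.14, and Il17d read 3.61, 3.27 and 4.64 against 3.54, 3.75 and 5.25, highest in replicate 3 of both groups.

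Il7, a lymphocyte survival cytokine made by lymphatic vessel and stromal cells, had the widest spread within a group of the genes that reached log2 6, with an SD of 2.46 in the EGFP-positive libraries. It read 4.85, 6.94 and 2.05 against 4.45, 6.07 and 3.33, highest in replicate 2 and lowest in replicate 3 of both groups. The log2 difference was near 0, with a 95% interval of -3.44 to 3.44, and the pair differences were 0.40, 0.87 and -1.28. The 10 endothelial genes averaged 6.27, 7.29 and 4.79 against 6.47, 7.01 and 6.26, and their part in the Il7 values was not tested. Its receptor gene Il7r, which marks T cells and innate lymphoid cells, read 1.96, 1.16 and 1.04 against 1.94, 4.30 and 4.16, above log2 4 in EGFP-negative replicates 2 and 3 only. A second, dimmer Il7r probe set read 1.84, 0.99 and 1.29 against 1.68, 1.84 and 2.37, with a difference of -0.59. The T cell receptor component Cd3d, with the largest difference of its list, read 1.68, 1.03 and 1.15 against 1.95, 4.09 and 5.33. Cd3e and Cd4 of the same list had groups that overlapped, and were highest in EGFP-negative replicate 1, at 2.50 and 2.18. The 9 genes of T cells, NK cells and innate lymphoid cells averaged 1.17 to 1.61 against 1.80 to 2.74. Of the 9, 6 were lower without overlap, against 6.04% of all genes. The part of these cells in the Il7r values was not tested.

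Il15, a cytokine that sustains NK cells, read 1.97, 3.10 and 2.82 against 2.87, 4.46 and 3.39, and its carrier receptor Il15ra read 2.34, 3.46 and 2.60 against 2.33, 4.22 and 3.72. Both genes were highest in replicate 2 of each group. Il4ra, a receptor chain for the Il4 and Il13 products, read 5.54, 5.16 and 5.18 against 5.40, 5.19 and 5.79, and its partner Il13ra1 read 5.28, 5.78 and 5.67 against 5.04, 5.82 and 6.80. The log2 difference of Il13ra1 was -0.31 (95% interval -1.45 to 0.83), and its 5 probe sets had differences of -0.51 to 0.11. The cytokine genes Il4 and Il13, which act on these chains, did not exceed 1.20 and 2.46, and Il13ra2, the decoy receptor, did not exceed 2.15.

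Il10rb, a receptor chain shared by the Il10 and Il22 products, read 7.37, 7.31 and 7.15 against 8.04, 7.63 and 7.36. It was lower in the EGFP-positive library of all 3 pairs, by small amounts, and the groups overlapped by 0.01. The log2 difference of -0.40 (SE 0.20, 95% interval -0.90 to 0.10) missed the threshold (limma adjusted p = 1.00). A second, dim Il10rb probe set did not exceed 2.13 and had a difference of 0.10. The mean of all Il10rb probe sets gave -0.15. Il10ra, the chain specific for Il10 and characteristic of blood-derived cells, read 1.62, 0.81 and 0.67 against 2.08, 2.85 and 3.14. Its groups did not overlap, but it did not reach log2 4 in any library, and its other probe sets had differences of -0.19 and 0.06. Il10 itself did not exceed 1.58.

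**Figure D4:**
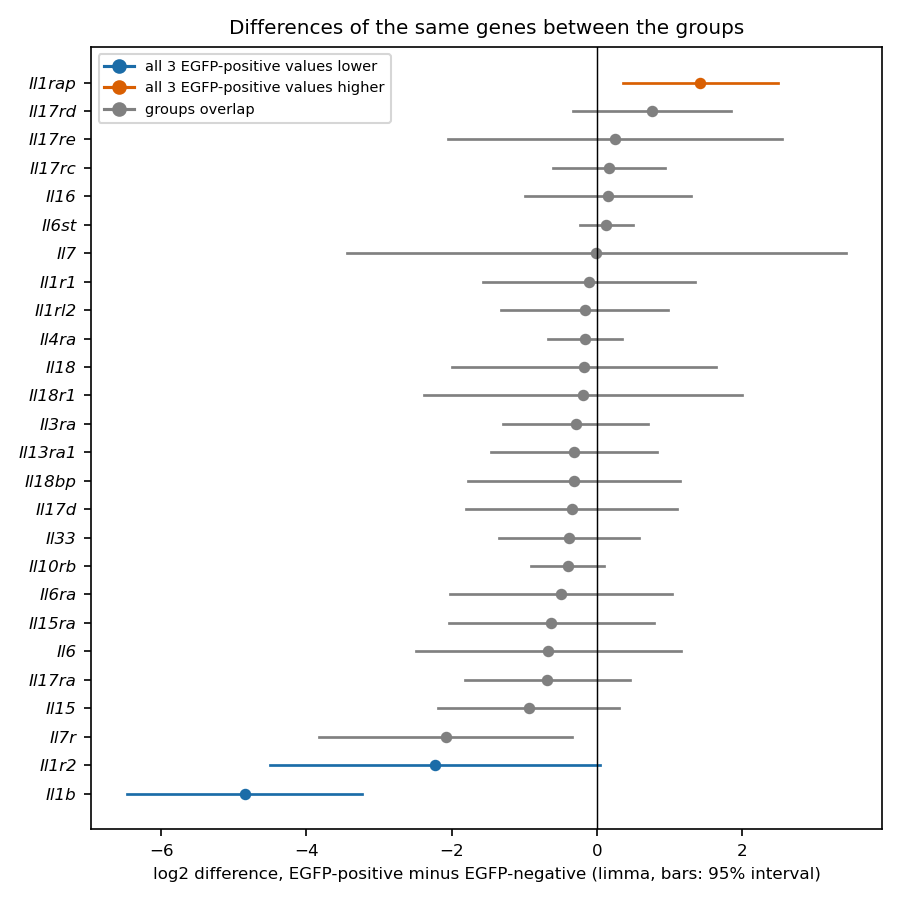
Log2 difference between the groups, EGFP-positive minus EGFP-negative (x axis), with the 95% limma interval, for the 26 genes that reached log2 4. Il1b lies lowest at -4.85, Il1rap highest at 1.43, and the interval of Il10rb runs from -0.90 to 0.10.

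The other members were too dim to compare. The 47 genes that stayed under log2 4 ranged from 0.48 to 3.14, and 12 of them never exceeded the highest TrpnX value. They include the T cell cytokines Il2, Il4, Il5, Il9, Il17a and Il21, and the myeloid cytokines Il12a, Il12b and Il23a. Among these 47 genes, 8 had all EGFP-positive values lower, against 485 of the 8705 genes in all that stayed under log2 4, with log2 differences of -1.66 to -0.27. These were Il10ra, Il11, Il13ra2, Il18rap, Il1a, Il1f9, Il1f10 and Il27ra. The genes not yet described that reached log2 4 were Il16, a T cell chemoattractant, at 5.34, 5.22 and 3.96 against 4.19, 4.68 and 5.20, Il1rl2, a receptor of the family of Il1r1, at 3.72, 4.68 and 3.72 against 3.56, 4.04 and 5.02, and Il3ra at 3.84, 3.13 and 3.26 against 4.47, 3.09 and 3.53. Their groups overlapped.

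Genes that act with the interleukins were compared by list, and 0 of them passed (limma, Benjamini-Hochberg adjusted over all genes). Of 18 cytokines and receptors of these families with other names, 5 were lower without overlap and 0 higher, against 6.04% and 3.07% of all genes. Their median log2 difference was -0.47. Among them Osm, the gene of the macrophage cytokine oncostatin M, read 1.89, 1.44 and 1.29 against 2.37, 5.60 and 4.81. Csf2rb, the chain shared by the receptors for Il3, Il5 and GM-CSF, read 4.49, 4.06 and 3.47 against 5.00, 7.05 and 6.78. Of 11 genes of the inflammasome and cytokine processing, 3 were lower without overlap, against 6.04% of all genes, with a median of -0.24. One was Casp1, the protease that cleaves the Il1b and Il18 precursors, at 4.11, 4.55 and 2.63 against 4.71, 6.12 and 4.79.

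Signalling genes downstream of the receptors had median differences close to 0. None of 15 genes of interleukin 1 and 17 receptor signalling had groups that did not overlap, against 9.11% of all genes. Their median log2 difference was -0.03. Of 21 JAK, STAT and SOCS genes, 2 were lower without overlap, against 6.04% of all genes, with a median of 0.08 over the list. The largest difference there was that of Ptpn6, a phosphatase of blood cells, at 3.88, 2.33 and 1.92 against 4.41, 6.61 and 7.31. The 17 genes that interleukins induce had a median log2 difference of -0.21, and 15 of these differences were below 0, against 53.6% of all genes. Of the 17, 1 was lower without overlap, which is 5.88% and near the 6.04% of all genes. That gene was Cxcl2, a chemokine that attracts neutrophils, which read 6.11, 5.82 and 4.21 against 7.85, 7.99 and 8.63, with a log2 difference of -2.78 (SE 0.55) that missed the threshold (limma adjusted p = 0.951). Socs3, a feedback inhibitor of Il6st signalling, read 9.53, 9.56 and 10.45 against 9.83, 9.48 and 9.03, and the groups overlapped.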

How the data were processed

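The deposited log2 expression values of 6 Affymetrix Mouse Genome 430 2.0 arrays were used without further normalisation. The authors made them with RMA, per the submitters' processing notes, with the version and settings not stated there. The log2 scale was read from the values, which ran from 0.05 to 15.2, and column medians near 2 are unusual for RMA, so the method behind them is uncertain. Per the labels' protocols, labelling started from about 50 ng of RNA. The number of arrays limits the precision, since arrays hold no read depth.

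Of 45101 probe sets, 34945 had 1 gene symbol in the platform annotation. The 932 with several symbols, the 9160 with none and the 64 controls were left out. A gene was read from its probe set with the highest mean, which gave 18193 genes. The fit across genes used limma 3.58.1 (R 4.3.3; lmFit, then eBayes; two-sided tests). P-values were Benjamini-Hochberg adjusted over the 18193 genes and called at 0.05. The script was tested on simulated data with less spread than these libraries, which checks the code and not the power to find differences here. The labels call the libraries biological replicates but do not say that the pools came from separate sorts, so p-values measure the spread between these libraries. Deviations from the group means correlated at 0.36, 0.32 and 0.42 in the same-numbered pairs and below 0 in the other 6. Deviations sum to 0 within a group, so positive values in some pairs force negative ones in others. The numbers were taken to pair the libraries, from the data and not from the labels. Named genes were those reaching log2 6, those reaching log2 4 with groups that did not overlap, Il1b and Mapt, and others are said to have been named later. The members and lists were chosen with earlier results of these data known. Alternatives covered scaling, probe set choice, a level filter, variance model, array weights, the replicate block and leaving out libraries. Promoter windows came from RefSeq (GRCm38.p6). Figures were drawn with matplotlib 3.10.9.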

Additional observations from a re-analysis of the deposited data

How the results depend on the processing

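No interleukin gene passed under any of the 16 alternatives run, where the smallest limma adjusted p was 0.0827, for Il1b without EGFP-positive replicates 1 and 2, an alternative chosen after seeing the data. The log2 difference of Il1b ran from -5.58 to -4.10 over the alternatives, with limma adjusted p from 0.0827 to 1.00, that of Il1rap from 0.44 to 2.29 and that of Il1r2 from -2.92 to -1.18. The replicate block left 0 interleukin genes and 0 genes in all past the threshold and changed no call, with adjusted p = 0.661 for Il1b. Over all genes the count was 0 to 2 when 1 library was left out, with the 2 genes called without EGFP-positive replicate 1. The number of interleukin genes lower without overlap was 16 with median centring, against 9.28% of all genes, and 3 with ribosomal centring, against 1.19%. It was 1 among genes above the median level, where only 22 members were tested, against 5.68% of all genes there. The number higher was 2 with quantile normalisation, against 3.65% of all genes, and 12 with ribosomal centring, against 23.4%. When 1 library was left out, which alone makes overlap rarer, 12 to 20 were lower, against 9.14% to 15.1% of all genes. The number higher was then 1 to 5, against 6.34% to 7.37% of all genes. The 5 came without EGFP-positive replicate 3, where 6.99% of all genes were higher. The highest counts lower, 20, 19 and 18, came without EGFP-positive replicate 1, EGFP-negative replicate 1 and EGFP-negative replicate 3, where 11.6%, 15.1% and 11.1% of all genes were lower. The median log2 difference of the interleukin genes was 0.19 with ribosomal centring and -0.24 without EGFP-positive replicates 1 and 2. Ribosomal centring, which raised all differences, turned those of Il13ra1 (0.0223), Il18 (0.16), Il18r1 (0.14), Il1r1 (0.23) and Il7 (0.33). Array weights turned those of Il18 (0.15), Il18r1 (0.37) and Il7 (0.67), and Il17re turned to -0.97 without EGFP-positive replicates 1 and 2, where the cause was not tested. Leaving out 1 library gave ranges of -0.73 to 0.15 for Il13ra1, -0.0772 to 0.45 for Il17rc, -0.38 to 1.01 for Il17re, -0.71 to 0.44 for Il18, -0.82 to 0.50 for Il18r1, -0.77 to 0.37 for Il1r1, -1.17 to 1.28 for Il7 and -0.11 to 2.00 for Mapt. It moved others by over 1.5 times without turning them, from -1.28 to -0.21 for Il6, -0.78 to -0.09 for Il33, -0.56 to -0.22 for Il10rb, 0.04 to 0.19 for Il6st and 0.32 to 1.11 for Il17rd. With log2 3 in place of 4, 28 genes in place of 26 counted as measured.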

Other observations

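A few probe sets of the array carry an interleukin symbol together with a second one and were left out of the 73 genes. The probe set shared by Il4i1 and Il4i1b read 1.33, 1.13 and 1.64 in the EGFP-positive libraries and 2.53, 1.92 and 3.08 in the EGFP-negative libraries. Its groups did not overlap, but it stayed under log2 4. The probe set shared by Ntan1, a protein deamidase gene, and Il2 read 7.90, 7.68 and 7.91 against 8.77, 7.96 and 7.98, while the probe set of Il2 alone did not exceed 1.60. The probe set shared by Iltifb and Il22 stayed between 1.39 and 1.71.

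Among the genes that reached log2 4, Il4ra had a dim probe set with 1 library above the rest, at 1.66, 1.91 and 1.99 against 4.15, 1.98 and 1.43. Il17re had a dim probe set at 3.06, 1.88 and 1.59 against 1.64, 1.64 and 1.48, above the others in EGFP-positive replicate 1 only.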
